A study of Mus musculus with 12 samples.

Results

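A set of 9 genes of vitamin A handling was followed through mouse jejunal epithelium that carried, per its labels, either the Fzd5KO or the Ctrl genotype. They are Scarb1, Bco1, Isx, Rbp2, Rbp7, Rdh7, Dhrs3, Aldh1a1 and Rarb, and they make up 9 of the 55421 genes in the deposited table. They were chosen by name, as genes of carotenoid uptake, carotenoid cleavage, retinoid binding, retinoid oxidation and reduction, and retinoic acid response. Earlier results of these data were known at that choice, so their counts set against all tested genes are no test of the set. Each name matched exactly 1 row. Of the 9, 8 reached 1 TPM (a transcript's share of its library, corrected for length and on the same scale in every library) in at least 3 libraries and could be tested, while Rarb stayed under 1 TPM in every library.

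The bulk RNA-seq series holds 4 groups of 3 libraries: Fzd5KO at day 1, Ctrl at day 1, Fzd5KO at day 3 and Ctrl at day 3. Fzd5 encodes Frizzled 5, a receptor for Wnt ligands. The labels do not state the allele, the Cre driver, the age of the mice, the event from which the days were counted or whether replicates came from separate mice, so the p-values below measure only the spread between these libraries. Fzd5 mRNA was still present in Fzd5KO. It measured 31.90, 33.14 and 33.06 TPM in the Fzd5KO day 1 libraries, against 43.53, 49.39 and 46.78 TPM in Ctrl at day 1. At day 3 it measured 39.66, 37.77 and 38.34 TPM in Fzd5KO, against 68.16, 65.88 and 60.47 TPM in Ctrl. Every Fzd5KO library was below every Ctrl library of its day, and exact permutation tests, two-sided, put each day's difference at p = 0.1, the lower bound with 3 against 3 libraries. Of the 50-base words of Fzd5, 16.5% also occur in Gm38058, and what this does to its level was not tested. TPM carries no read depth, so the depth behind each value is unknown. Between 21506 and 24467 genes were above 0 in a library, and libraries of 1 group correlated at r = 0.976 to 0.988.

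Vitamin A enters the small intestine as retinyl esters from animal food and as provitamin A carotenoids from plants. In the enterocyte, the absorptive cell, SCARB1 (scavenger receptor class B type 1) helps carotenoids across the brush border, BCO1 (beta-carotene oxygenase 1) cleaves beta-carotene into retinal, retinal is reduced to retinol, and retinol bound to RBP2 is esterified and leaves in chylomicrons. Part of the retinal is oxidised to retinoic acid, which acts through the nuclear receptors RAR and RXR, and in mouse intestine it induces ISX, a homeobox protein that represses Scarb1 and Bco1.

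The upstream sequences of Rbp2, Bco1 and Rdh7 are shown because these 3 genes were called in a single direction on both days under every scaling tried, Rbp2 higher and the others lower in Fzd5KO. Each was read 5′ to 3′ on the gene's strand from RefSeq (GRCm38.p6, the assembly of mm10), which had a start for 8 of the 9 genes (none for Scarb1), and each ends at the base before the start. The Rbp2 window, chr9:98490287-98490536 on the plus strand, lies inside the GENCODE gene and outside its annotated exons. The Bco1 window, chr8:117095615-117095853 on the plus strand, and that of the Rdh7 start that matches GENCODE, chr10:127888818-127888983 on the minus strand, were shortened where an annotated exon began. Upstream sequence was read for 7 of the genes: at the only Rarb start, and at 2 of the 3 Dhrs3 starts, annotated exons left 0 bases to read. Capitals mark TGACCTTTGAC and, in Bco1, the letters that extend it to a repeat.
Rbp2: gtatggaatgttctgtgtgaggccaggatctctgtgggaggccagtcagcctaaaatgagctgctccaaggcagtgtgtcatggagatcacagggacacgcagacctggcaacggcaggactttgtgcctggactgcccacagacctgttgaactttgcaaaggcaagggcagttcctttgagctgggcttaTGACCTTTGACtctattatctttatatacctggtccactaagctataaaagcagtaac
Bco1: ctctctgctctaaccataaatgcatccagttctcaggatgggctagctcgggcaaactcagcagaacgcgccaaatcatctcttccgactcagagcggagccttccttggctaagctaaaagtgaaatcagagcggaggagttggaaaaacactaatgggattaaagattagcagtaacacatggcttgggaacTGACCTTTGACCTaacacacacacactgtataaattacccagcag
Rdh7: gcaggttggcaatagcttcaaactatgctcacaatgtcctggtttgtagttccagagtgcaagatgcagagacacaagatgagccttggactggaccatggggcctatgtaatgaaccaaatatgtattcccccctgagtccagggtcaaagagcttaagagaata

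The letters TGACCTTTGAC begin 58 bases before the start in Rbp2 and 56 bases before it in Bco1. Searched on both strands, they occur in 10 of 32851 RefSeq windows of 250 bases, a share of 0.0304%. They are the longest run that the Rbp2 and Bco1 windows share, and were chosen after the sequences had been read. They contain TGACCT, the reverse complement of the hormone receptor motif AGGTCA, which 14% of all windows hold. In Bco1 the capitals form AGGTCANAGGTCA on the minus strand, a repeat found in 11 windows (0.0335%), and no other of the windows read for these genes holds it. The retinoic acid response motif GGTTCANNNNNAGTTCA, in 2 of all windows (0.00609%), was in none of those read, which include no Rarb sequence, and its part AGTTCA, in 11.8% of all windows, was in Rbp2. The TATA box letters TATAAA, in 12.4% of all windows, were in Rbp2 and Bco1. The shortened Rdh7 window holds none of these motifs, and the window of a further RefSeq start of Rdh7, not shown, holds AGGTCA. The pair that shares these letters moved in opposite directions, as the values below show, and a match of letters says nothing on what binds there.

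At day 1 the differences in the deposited TPM were mostly downward, and Bco1 stood at 48.2% of Ctrl. Of the 8 tested genes, 6 were called by limma at an adjusted p under 0.05, where 25.0% of all 14510 tested genes were. Rbp2 alone was higher in Fzd5KO, a direction that 2.13% of all tested genes took, and Scarb1, Bco1, Rdh7, Dhrs3 and Aldh1a1 were lower, a direction that 22.8% took. Fzd5KO and Ctrl libraries did not overlap for 6 of the 8 genes, against 43.4% of all tested genes. The median log2 difference was -0.25 over the 8 genes and -0.14 over all tested genes. The shift over all genes came to 0.00 after quantile normalization and after median-of-ratios scaling, which are built to remove such a shift. It was -0.045 with TPM recalculated without the most abundant RNAs. Under each of these scalings 4 of the 8 genes were called. Rbp2, Bco1 and Rdh7 were called at day 1 under each of the 3 scalings. With median-of-ratios scaling the calls were 2 higher (Rbp2 and Isx) and 2 lower (Bco1 and Rdh7), so the lower genes were no longer the majority, and Rbp7 stood at 0.042.

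At day 3 the differences ran both ways. They were larger than at day 1 for every tested gene except Dhrs3, though the interaction was not called for Bco1. Of the 8 genes, 7 were called, against 62.8% of all tested genes. Scarb1 and Rbp2 were higher in Fzd5KO (24.3% of all tested genes were), and Bco1, Isx, Rbp7, Rdh7 and Aldh1a1 were lower (38.5% were). All 8 genes had groups that did not overlap, as did 66.5% of all tested genes. The median log2 difference was -0.37 over the 8 genes and -0.14 over all tested genes. Bco1, Rdh7, Aldh1a1 and Rbp2 were called in a single direction on both days, as were 13.2% of all tested genes. Averaged over both days, all 8 were called, 2 higher and 6 lower, against 58.9% of all tested genes (17.6% higher, 41.3% lower). With median-of-ratios scaling 6 of the 8 kept that call, Dhrs3 being at -0.053 (adjusted p = 0.512) and Isx at 0.050 (adjusted p = 0.189), and Dhrs3 also missed the threshold after quantile normalization (adjusted p = 0.0579). The Isx call over both days further depended on single libraries, and held with 1 omitted only for Fzd5KO day 1 replicate 3, Fzd5KO day 3 replicate 2 and replicate 3 of Ctrl on either day. The interaction, which asks if the genotype difference itself differed between the days, was called for 6 of the 8, with 2 positive and 4 negative, against 44.3% of all tested genes (25.3% positive, 19.1% negative).

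**Figure D1:**
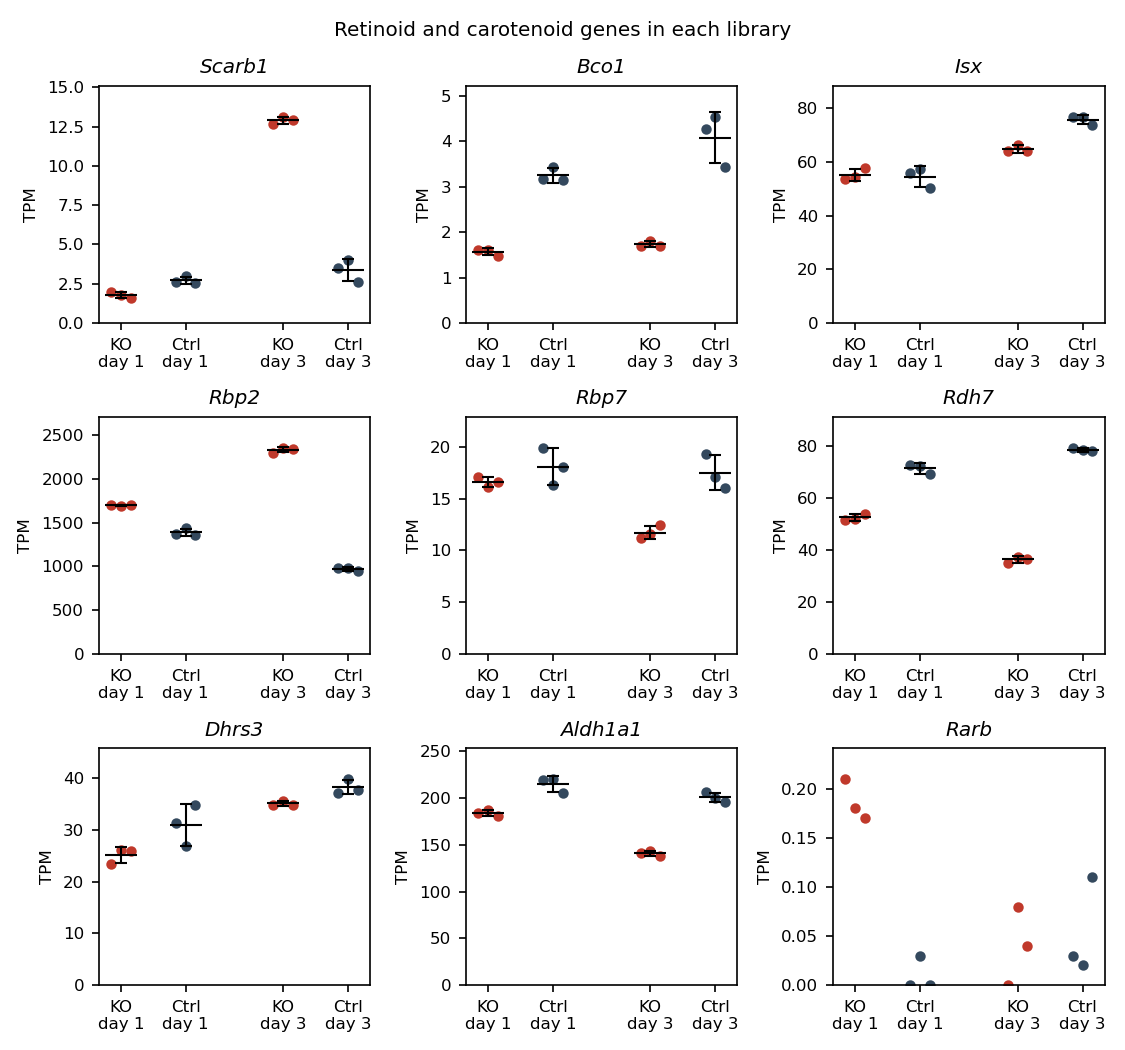
TPM (vertical axes, each starting at 0) of the 9 genes in each of the 12 libraries, with Fzd5KO in red left of Ctrl in dark blue on each day. Points are libraries, and the horizontal line and bars give the mean and SD of 3 libraries, left out for Rarb. Scarb1 stands at 12.66 to 13.11 TPM in Fzd5KO at day 3 and at or under 3.99 TPM in the other groups.

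Scarb1, the carotenoid and lipoprotein lipid receptor (chr5:125277087-125341094, minus strand, mm10), had the largest day 3 difference of the 8 tested genes on the log2(TPM + 1) scale, though with a pseudocount of 5 it was 1.10 and that of Rbp2 1.26. Day 3 libraries held 12.66, 13.11 and 12.94 TPM in Fzd5KO, against 3.52, 3.99 and 2.64 TPM in Ctrl. At day 1 it measured 1.97, 1.76 and 1.61 TPM in Fzd5KO, against 2.63, 2.98 and 2.54 TPM in Ctrl. Fzd5KO was thus above every Ctrl library at day 3 and below every Ctrl library at day 1. The day 3 mean was 12.9 ± 0.23 TPM in Fzd5KO and 3.38 ± 0.69 TPM in Ctrl (SD, n = 3 each), a ratio of 3.81. Adding 1 TPM before taking log2 shrinks the change of low genes, and on that scale the difference was 1.68 ± 0.11 (SE) at day 3 (limma adjusted p = 1.55e-07) and -0.42 ± 0.11 at day 1 (limma adjusted p = 0.0196). The difference between the days' effects, tested as an interaction, was 2.10 ± 0.16 (limma adjusted p = 9.08e-07). The day 1 call was lost under all 3 other scalings, namely quantile (adjusted p = 0.140), median-of-ratios (0.0590) and recalculated TPM (0.0567), and also without Fzd5KO replicate 2 (0.0530) or 3 (0.0661) or Ctrl replicate 2 (0.0718).

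SCARB1 is also made by macrophages, and immune markers were also higher in Fzd5KO than in Ctrl at day 3. At day 3 the 6 macrophage and dendritic cell markers summed to 8.37 to 10.65 TPM per Fzd5KO library, against 3.15 to 4.90 TPM per Ctrl library, with Adgre1, Flt3 and Cd209a under 1 TPM in both groups, and 2 of the 3 tested were called higher. All 4 tested T cell markers of 5 listed and all 4 B and plasma cell markers were also called higher, as were 24.3% of all tested genes. Day 3 sums of T cell markers were 20.04 to 23.25 TPM in Fzd5KO and 6.78 to 8.35 TPM in Ctrl, and those of B and plasma cell markers were 13.58 to 14.43 TPM in Fzd5KO and 2.66 to 3.84 TPM in Ctrl. At day 1 macrophage and dendritic cell markers summed to 3.46 to 4.22 TPM in Fzd5KO and 4.19 to 5.19 TPM in Ctrl. B and plasma cell markers summed to 1.72 to 2.28 TPM in Fzd5KO and 2.77 to 4.91 TPM in Ctrl at day 1. T cell markers summed at day 1 to 17.89 to 22.41 TPM in Fzd5KO, near their day 3 level there. In Ctrl they summed to 23.90 to 28.93 TPM at day 1, above their day 3 level there. The part of immune cells in the Scarb1 difference was not tested.

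Bco1, which makes retinal from beta-carotene (chr8:117095854-117133720, plus strand), was lower in Fzd5KO on both days. Day 1 libraries held 1.61, 1.61 and 1.48 TPM in Fzd5KO, against 3.17, 3.44 and 3.14 TPM in Ctrl. Its day 3 values were 1.70, 1.81 and 1.69 TPM in Fzd5KO, against 4.26, 4.53 and 3.44 TPM in Ctrl. The groups stood apart on both days, and the highest Fzd5KO library, at 1.81 TPM, was below the lowest Ctrl library, at 3.14 TPM. Fzd5KO means were 48.2% of Ctrl at day 1 and 42.5% at day 3. The log2 difference was -0.73 ± 0.095 at day 1 (limma adjusted p = 0.00046) and -0.89 ± 0.095 at day 3 (limma adjusted p = 8.98e-06). The days' effects differed by -0.16 (95% interval -0.46 to 0.14, limma adjusted p = 0.367).

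Scarb1 and Bco1, both repressed by ISX in mouse intestine, stood on the same side of Ctrl at day 1 and on opposite sides at day 3. Isx itself (chr8:74873173-74893506, plus strand) measured 53.44, 54.31 and 57.65 TPM in Fzd5KO at day 1, against 55.97, 57.32 and 50.17 TPM in Ctrl. At day 3 it measured 63.93, 66.43 and 63.94 TPM in Fzd5KO, against 76.74, 76.63 and 73.68 TPM in Ctrl. The groups overlapped at day 1 and stood apart at day 3, with Fzd5KO at 85.6% of Ctrl. On the log2 scale Fzd5KO minus Ctrl came to 0.018 at day 1 (95% interval -0.094 to 0.13, limma adjusted p = 0.815) and -0.22 ± 0.051 at day 3 (limma adjusted p = 0.00269), and the interaction was -0.24 ± 0.072 (limma adjusted p = 0.0184). With median-of-ratios scaling the day 3 difference was -0.079 (adjusted p = 0.134) and the day 1 difference was 0.18 and called (adjusted p = 0.0176).

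Rbp2, the cellular retinol-binding protein of enterocytes (chr9:98486115-98509781, plus strand), was by far the most abundant of the 9 genes and was higher in Fzd5KO on both days. Its day 1 values were 1700.39, 1694.79 and 1706.30 TPM in Fzd5KO, against 1373.39, 1436.32 and 1353.80 TPM in Ctrl. Day 3 libraries held 2298.98, 2353.70 and 2345.89 TPM in Fzd5KO, against 981.30, 979.78 and 943.65 TPM in Ctrl. The lowest Fzd5KO library of both days lay above the highest Ctrl library. The ratio of means was 1.23 at day 1 and 2.41 at day 3. The log2 difference was 0.29 ± 0.030 at day 1 (limma adjusted p = 8.82e-05) and 1.27 ± 0.030 at day 3 (limma adjusted p = 6.18e-11), with an interaction of 0.97 ± 0.042 (limma adjusted p = 1.31e-08).

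Rbp7, another cellular retinol-binding protein (chr4:149449687-149454978, minus strand), went the other way at day 3. Its day 3 values were 11.20, 11.55 and 12.42 TPM in Fzd5KO, against 19.34, 17.09 and 16.03 TPM in Ctrl. At day 1 it measured 17.07, 16.12 and 16.65 TPM in Fzd5KO, against 19.90, 16.34 and 18.05 TPM in Ctrl, and the groups overlapped. On the log2 scale Fzd5KO minus Ctrl came to -0.54 ± 0.081 at day 3 (limma adjusted p = 0.000131) and -0.11 at day 1 (95% interval -0.29 to 0.064, limma adjusted p = 0.324), with an interaction of -0.42 ± 0.11 (limma adjusted p = 0.0105). Rbp7 is known from endothelial and fat cells. The 7 endothelial markers summed to at most 2.57 TPM in any library and the 4 adipocyte markers to at most 0.33 TPM. The endothelial sum reached 2.23 to 2.57 TPM in Fzd5KO, against 0.92 to 1.14 TPM in Ctrl, at day 3. Their part in the Rbp7 difference was not tested. Dividing the level of Rbp2 by that of Rbp7 gave 189 to 205 in Fzd5KO, against 50.7 to 58.9 in Ctrl, at day 3, and 99.6 to 105 in Fzd5KO and 69.0 to 87.9 in Ctrl at day 1.

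Rdh7, a microsomal short-chain dehydrogenase that oxidises retinol to retinal and also acts on steroids (chr10:127884028-127888817, minus strand), was lower in Fzd5KO on both days. Day 1 libraries held 51.74, 52.12 and 54.10 TPM in Fzd5KO, against 72.70, 72.54 and 69.23 TPM in Ctrl. At day 3 it measured 35.08, 37.53 and 36.66 TPM in Fzd5KO, against 79.42, 78.59 and 78.06 TPM in Ctrl. The 2 groups stood far apart on both days, with Fzd5KO means at 73.7% of Ctrl at day 1 and 46.3% at day 3. The log2 difference was -0.43 ± 0.037 at day 1 (limma adjusted p = 2.63e-05) and -1.09 ± 0.037 at day 3 (limma adjusted p = 7.59e-10), with an interaction of -0.66 ± 0.053 (limma adjusted p = 1.58e-06). Of the 50-base words of Rdh7, 12.9% occur in other genes, mostly the pseudogene Rdh18-ps.

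Dhrs3, which reduces retinal back to retinol (chr4:144892827-144928209, plus strand), showed small differences. Its day 1 values were 23.38, 26.03 and 25.91 TPM in Fzd5KO, against 31.23, 26.77 and 34.76 TPM in Ctrl. Day 3 libraries held 34.87, 35.61 and 34.81 TPM in Fzd5KO, against 37.17, 39.83 and 37.71 TPM in Ctrl. Fzd5KO lay below Ctrl on both days, by less than 1 TPM between the nearest libraries at day 1. On the log2 scale Fzd5KO minus Ctrl came to -0.28 ± 0.079 at day 1 (limma adjusted p = 0.0243) and -0.12 at day 3 (95% interval -0.29 to 0.054, limma adjusted p = 0.208). The interaction was 0.16 (limma adjusted p = 0.264), and 0.26 and called without Ctrl day 1 replicate 2 (adjusted p = 0.0289). The day 1 call was lost in 8 of 22 alternatives, among them median-of-ratios scaling (-0.13, adjusted p = 0.395), the fit on the day 1 libraries alone (0.0807), and the fits without Fzd5KO replicate 1 (0.0861), Ctrl replicate 1 (0.0613) or Ctrl replicate 3 (0.0691).

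Aldh1a1, the aldehyde dehydrogenase that turns retinal into retinoic acid (chr19:20492715-20643465, plus strand), was lower in Fzd5KO on both days. At day 1 it measured 184.05, 187.15 and 180.80 TPM in Fzd5KO, against 218.99, 220.45 and 205.24 TPM in Ctrl. Its day 3 values were 141.04, 143.43 and 137.82 TPM in Fzd5KO, against 206.27, 199.89 and 195.98 TPM in Ctrl. The groups did not overlap on either day, and Fzd5KO was at 85.6% of Ctrl at day 1 and 70.1% at day 3. The log2 difference was -0.22 ± 0.036 at day 1 (limma adjusted p = 0.00157) and -0.51 ± 0.036 at day 3 (limma adjusted p = 2.55e-07), with an interaction of -0.29 ± 0.050 (limma adjusted p = 0.000731). With median-of-ratios scaling the day 1 difference was -0.059 and was not called (adjusted p = 0.230).

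Rarb, a retinoic acid receptor whose own gene is induced by retinoic acid in many cells (chr14:16430839-16819156, minus strand), was listed near 0 throughout. At day 1 it was listed at 0.21, 0.18 and 0.17 TPM in Fzd5KO, against 0, 0.03 and 0 TPM in Ctrl. At day 3 it was listed at 0, 0.08 and 0.04 TPM in Fzd5KO, against 0.03, 0.02 and 0.11 TPM in Ctrl. The Fzd5KO day 1 libraries were thus the highest and the day 3 groups overlapped. A fit of all 31827 genes above 0 anywhere gave a log2 difference of 0.23 at day 1 (limma adjusted p = 0.00499) and -0.018 at day 3 (limma adjusted p = 0.848). Rarb exons overlap those of Top2b on the opposite strand, 30.8% of its 50-base words occur in Top2b, and no source used here says if the counting kept the strands apart, so these values are uncertain.

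**Figure D2:**
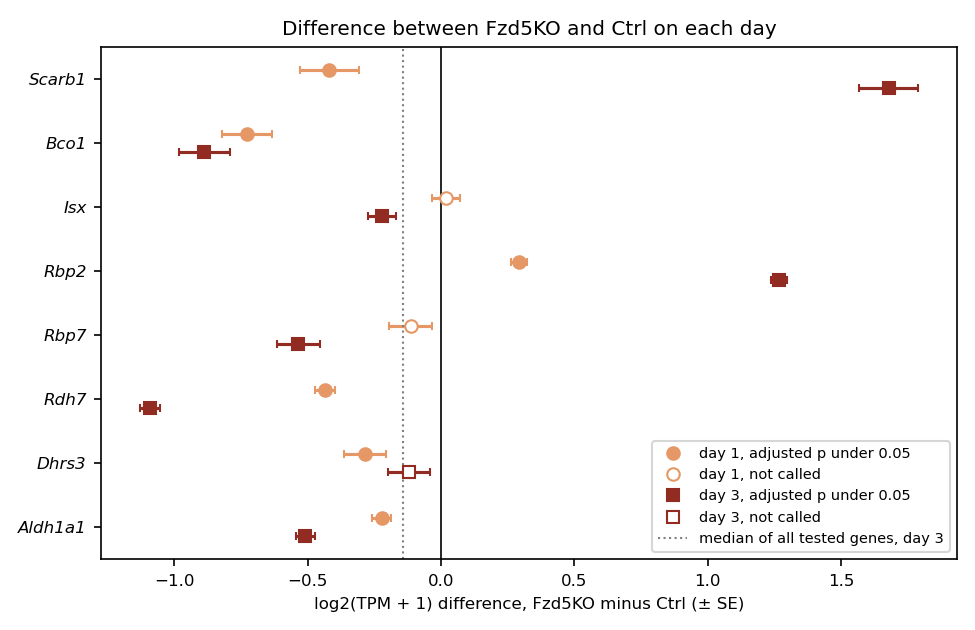
Difference between Fzd5KO and Ctrl on the log2(TPM + 1) scale (horizontal axis, Fzd5KO minus Ctrl, with SE) for the 8 tested genes, at day 1 (light circles) and day 3 (dark squares), filled where the limma adjusted p was under 0.05. The dotted line is the day 3 median of all tested genes, -0.14. Scarb1 (1.68) and Rbp2 (1.27) lie far to the right at day 3 and Rdh7 (-1.09) farthest to the left.

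The genes also changed with time, differently in the 2 genotypes for those called in the interaction. Between day 1 and day 3, 7 of the 8 genes changed in Fzd5KO, 4 upward and 3 downward, against 44.9% of all tested genes (34.4% upward, 10.5% downward). In Ctrl 4 changed, 3 upward and 1 downward, against 36.1% (25.0% upward, 11.0% downward). The median over all tested genes was 0.11 in Fzd5KO and 0.11 in Ctrl, and -0.0075 in Fzd5KO and 0.0015 in Ctrl after median-of-ratios scaling. Rbp2 was higher at day 3 in Fzd5KO (0.46 ± 0.030, limma adjusted p = 2.69e-07) and lower at day 3 in Ctrl (-0.52 ± 0.030, limma adjusted p = 3.49e-07). Of all tested genes, 8.24% were called in this pattern. Rdh7 had the opposite one, with -0.52 ± 0.037 in Fzd5KO (limma adjusted p = 5.25e-07) and 0.14 ± 0.037 in Ctrl (limma adjusted p = 0.0147), a pattern called in 5.55% of all tested genes. The Ctrl value of Rdh7 was not called after quantile normalization (adjusted p = 0.0854), after median-of-ratios scaling (0.878) or without Ctrl day 1 replicate 3 (0.0562).

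Scarb1 rose with time in Fzd5KO by 2.32 ± 0.11 (limma adjusted p = 2.45e-08) and had a value of 0.23 in Ctrl that missed the threshold (limma adjusted p = 0.132) and passed it without Ctrl day 3 replicate 3 (0.0146). Aldh1a1 fell by 0.38 in Fzd5KO (limma adjusted p = 4.24e-06), with -0.098 in Ctrl (limma adjusted p = 0.0522). The Ctrl value passed the threshold in 6 alternatives, among them median-of-ratios scaling (-0.23, adjusted p = 0.000178), and it did so when replicate 3 of Ctrl at day 1 (0.0169) or replicate 1 of Ctrl at day 3 (0.0469) was omitted. Rbp7 fell by 0.47 in Fzd5KO (limma adjusted p = 0.000546), with -0.047 in Ctrl (limma adjusted p = 0.686). Isx and Dhrs3 rose in both genotypes. Isx rose by 0.23 in Fzd5KO (limma adjusted p = 0.00325) and 0.47 in Ctrl (limma adjusted p = 4.36e-05), though its Fzd5KO value was -0.073 after quantile normalization and -0.010 with recalculated TPM, neither called, and median-of-ratios scaling also ended its call (adjusted p = 0.147). Dhrs3 rose by 0.47 in Fzd5KO (limma adjusted p = 0.000481) and 0.30 in Ctrl (limma adjusted p = 0.0118), and lost the Fzd5KO call with quantile normalization (adjusted p = 0.0611) and recalculated TPM (0.0531) and the Ctrl call with quantile (0.0735) and median-of-ratios scaling (0.164). Bco1 was at 0.091 in Fzd5KO (limma adjusted p = 0.481) and 0.25 in Ctrl (limma adjusted p = 0.0605), and the Ctrl value passed the threshold without Ctrl day 3 replicate 3 (0.0149).

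The 9 genes spanned a wide range of levels in TPM, which is corrected for transcript length. Rbp2 averaged 1597 TPM over the 12 libraries and ranked 45 among all genes, followed by Aldh1a1 at 185, Isx at 62.5, Rdh7 at 59.8, Dhrs3 at 32.3, Rbp7 at 16.0, Scarb1 at 5.20, Bco1 at 2.66 and Rarb at 0.0725 TPM. Neighbours in this order whose libraries overlapped were Isx and Rdh7, and Scarb1 and Bco1, in Fzd5KO at day 1, Rdh7 and Dhrs3 in Fzd5KO at day 3, and Bco1 and Scarb1 in Ctrl at day 3. The order itself changed: Rdh7 stood below Isx in Fzd5KO at day 3 and above it in Ctrl on both days, and Scarb1 stood above Rbp7 in Fzd5KO at day 3 and below it in the other groups. Without Rbp2 the remaining 8 genes summed to 300.3 to 310 TPM in Fzd5KO and 408 to 427 TPM in Ctrl at day 3, and to 333 to 339 TPM in Fzd5KO and 383 to 405 TPM in Ctrl at day 1. Aldh1a1 was the largest part of these sums, with day 3 means of 141 TPM in Fzd5KO and 201 TPM in Ctrl. Scarb1, a small part, went the other way at day 3.

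Enterocyte markers moved strongly at day 3. Of 14 markers, 13 rose in Fzd5KO and 0 fell, against 24.3% and 38.5% of all tested genes, with Lct the exception at -0.057 (limma adjusted p = 0.120), and their median log2 difference was 1.25. At day 1, 3 rose and 7 fell, against 2.13% and 22.8%. Summed, they reached 47240 to 48951 TPM in Fzd5KO, against 21304 to 22529 TPM in Ctrl, at day 3, and 28765 to 29646 in Fzd5KO and 26507 to 27658 in Ctrl at day 1. In Fzd5KO at day 3 the largest parts were Apoa1 (10524.5 to 10926.4 TPM), Apoa4 (11233 to 11547) and Fabp1 (4969 to 5100). These were the 3 that rose at day 1, when the median log2 difference of the 14 markers was -0.17. In bulk RNA, more or fewer cells of a type and more or less RNA per cell cannot be told apart. The sum of the 14 markers was itself higher in Fzd5KO at day 3, so dividing by it lowers every Fzd5KO value relative to Ctrl. Such a division must widen the gap of any gene already lower. Per 1000 TPM of the 14 markers, Rbp2 stood at 48.1 to 48.8 TPM in Fzd5KO and 43.6 to 44.3 TPM in Ctrl at day 3, a much narrower gap than in TPM. By the same measure Scarb1 stood at 0.268 to 0.269 TPM in Fzd5KO and 0.124 to 0.177 TPM in Ctrl, and remained the higher in Fzd5KO. The gaps of the lower genes were, by the division itself, wider than in TPM: Rdh7 stood at 0.743 to 0.767 TPM in Fzd5KO and 3.49 to 3.66 TPM in Ctrl, Bco1 at 0.0352 to 0.0370 TPM in Fzd5KO and 0.161 to 0.201 TPM in Ctrl, and Aldh1a1 at 2.87 to 2.99 TPM in Fzd5KO and 8.89 to 9.20 TPM in Ctrl. Isx, per 1000 TPM of enterocyte markers, was at 1.33 to 1.36 TPM in Fzd5KO and 3.41 to 3.46 TPM in Ctrl at day 3. This measure was chosen after the values had been seen and has no test.

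Markers of the other epithelial cells were lower in Fzd5KO on both days. At day 1 stem cell markers summed to 64.8 to 67.0 TPM in Fzd5KO and 315 to 333 TPM in Ctrl, Paneth cell markers to 2936 to 3026 TPM in Fzd5KO and 3401 to 3678 TPM in Ctrl, and goblet cell markers to 3238 to 3420 TPM in Fzd5KO and 5589 to 6041 TPM in Ctrl. At day 3 stem cell markers summed to 35.7 to 36.6 TPM in Fzd5KO and 488 to 516 TPM in Ctrl, Paneth cell markers to 1208 to 1303 TPM in Fzd5KO and 3203 to 3326 TPM in Ctrl, and goblet cell markers to 3400 to 3656 TPM in Fzd5KO and 5194 to 5487 TPM in Ctrl. Enteroendocrine markers summed to 110 to 114 TPM in Fzd5KO and 153 to 169 TPM in Ctrl at day 1. At day 3 they summed to 63.1 to 67.6 TPM in Fzd5KO and 246 to 256 TPM in Ctrl. Tuft cell markers summed to 10.6 to 14.3 TPM in Fzd5KO and 14.5 to 15.7 TPM in Ctrl at day 1. Their day 3 sums were 4.96 to 6.11 TPM in Fzd5KO and 27.4 to 31.2 TPM in Ctrl. Markers of the villus tip, where enterocytes are oldest, summed to 12440 to 12785 TPM in Fzd5KO and 4576 to 4902 TPM in Ctrl at day 3. Apoa4, which is also on the enterocyte list, supplied most of these sums, at 11233 to 11547 TPM in Fzd5KO and 4379 to 4693 TPM in Ctrl. Their part in the differences of the 9 genes was not tested. The jejunal label matched clear expression of Lct, at 535 to 712 TPM over all libraries. Of 3 ileal genes listed, Fabp6 was also expressed, at 454 to 481 TPM in Fzd5KO and 146 to 147 TPM in Ctrl at day 3. At day 1 Fabp6 stood at 286 to 299 TPM in Fzd5KO and 340 to 368 TPM in Ctrl. The other ileal genes were low, Slc10a2 at no more than 6.63 TPM and Fgf15 at no more than 8.48 TPM in any library.

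The rest of the retinoid pathway was read from a list of 56 further genes, of which 55 were in the table and 34 were tested. At day 1, 3 were higher and 12 lower in Fzd5KO, with a median log2 difference of -0.15. At day 3, 9 were higher and 14 lower, with a median of -0.0029. The 15 called at day 1 (44.1% of those tested) and 23 called at day 3 (67.6%) compare with 25.0% and 62.8% of all tested genes. As a share of the summed TPM of all these genes with the 9, Rbp2 held 52.1 to 53.2% in Fzd5KO and 32.1 to 32.3% in Ctrl at day 3.

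The 3 tested genes of the plasma carriers and their receptors, Stra6l, Ttr and Rbp4, fell in Fzd5KO on both days, where 22.8% of all tested genes did at day 1 and 38.5% at day 3. Stra6, also listed, was too low to be tested, and Rbp4 was named after its values had been seen. Rbp4, the plasma carrier of retinol, differed by -0.82 at day 3 (limma adjusted p = 0.00167) and -0.58 at day 1 (limma adjusted p = 0.0324). Its day 1 call was lost under all 3 scalings (adjusted p up to 0.136) and without Fzd5KO replicate 1 (0.0810) or 2 (0.113) or Ctrl replicate 1 (0.0627) or 2 (0.118). Stra6l, a receptor for retinol bound to RBP4, measured 2.32, 2.16 and 2.59 TPM in Fzd5KO at day 3, against 7.74, 7.72 and 7.80 TPM in Ctrl. Its log2 difference was -1.38 ± 0.080 at day 3 (limma adjusted p = 4.93e-08) and -0.71 ± 0.080 at day 1 (limma adjusted p = 0.000163). Ttr, transthyretin, which carries the retinol and RBP4 complex in plasma, had a log2 difference of -1.36 at day 3 (limma adjusted p = 2.83e-06) and -0.83 at day 1 (limma adjusted p = 0.00123). The part of changed cell types in the differences of Stra6l, Ttr and Rbp4 was not tested.

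Retinol esterification split. Lrat, the main retinol esterifying enzyme of the intestine, measured 2.96, 2.91 and 3.03 TPM in Fzd5KO at day 3, against 5.70, 5.46 and 6.06 TPM in Ctrl, and its log2 difference was -0.76 ± 0.071 (limma adjusted p = 2.86e-06). Dgat1, a triglyceride enzyme that can also esterify retinol, measured 848, 884 and 819 TPM in Fzd5KO at day 3, against 656, 651 and 630.1 TPM in Ctrl, a log2 difference of 0.40 ± 0.044 (limma adjusted p = 1.16e-05). Both were lower in Fzd5KO at day 1, Lrat at -0.27 (limma adjusted p = 0.0209) and Dgat1 at -0.29 (limma adjusted p = 0.00115). Median-of-ratios scaling ended the day 1 call of Dgat1 (adjusted p = 0.0719), and that of Lrat was lost under all 3 scalings (up to 0.545), on the day 1 libraries alone (0.0591) and without Fzd5KO replicate 1 (0.0639) or 2 (0.0751) or Ctrl replicate 1 (0.0611). The interaction was -0.50 for Lrat (limma adjusted p = 0.00194) and 0.69 for Dgat1 (limma adjusted p = 4.22e-06). Plb1, a brush border phospholipase that hydrolyses retinyl esters, was lower at day 1 (-0.59, limma adjusted p = 1.73e-05) and higher at day 3 (0.23, limma adjusted p = 0.00147), and the day 3 call was lost with quantile normalization (adjusted p = 0.308). Lipe, hormone-sensitive lipase, which also hydrolyses retinyl esters, was higher at day 3 (0.66, limma adjusted p = 4.04e-07).

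Among the oxidising and reducing enzymes, 14 were tested, with 2 higher and 3 lower in Fzd5KO at day 1 and 3 higher and 7 lower at day 3. The shares called, 35.7% at day 1 and 71.4% at day 3, lie near the 25.0% and 62.8% of all tested genes. Akr1b8, an aldo-keto reductase able to reduce retinal, measured 32.21, 34.42 and 34.48 TPM in Fzd5KO at day 3, against 11.92, 9.59 and 9.53 TPM in Ctrl, a log2 difference of 1.62 ± 0.090 (limma adjusted p = 3.55e-08), after 0.72 at day 1 (limma adjusted p = 0.000331). Near relatives parted company at day 3. Aldh1a7 lies next to Aldh1a1 (chr19:20692953-20727562, minus strand) and measured 17.87, 20.45 and 19.13 TPM in Fzd5KO, against 11.40, 11.35 and 10.15 TPM in Ctrl. Its log2 difference was 0.75 ± 0.079 (limma adjusted p = 7.53e-06), where that of Aldh1a1 was -0.51. Of the 50-base words of Aldh1a7, 7.49% occur in Aldh1a1. On chromosome 10, close to Rdh7, Rdh16f2 was lower at day 3 (-1.30, limma adjusted p = 4.03e-05) and Rdh9 higher (0.79, limma adjusted p = 3.46e-05), but 68.3% of the 50-base words of Rdh9 occur in other genes and its level is uncertain. Bco2, which cleaves carotenoids off centre, measured 44.33, 46.38 and 44.28 TPM in Fzd5KO at day 3, against 31.53, 30.10 and 25.91 TPM in Ctrl, a log2 difference of 0.61 ± 0.068 (limma adjusted p = 1.13e-05) where Bco1 had -0.89. Aldh1a7, Rdh16f2, Rdh9 and Bco2 were named after their values had been seen.

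**Figure D3:**
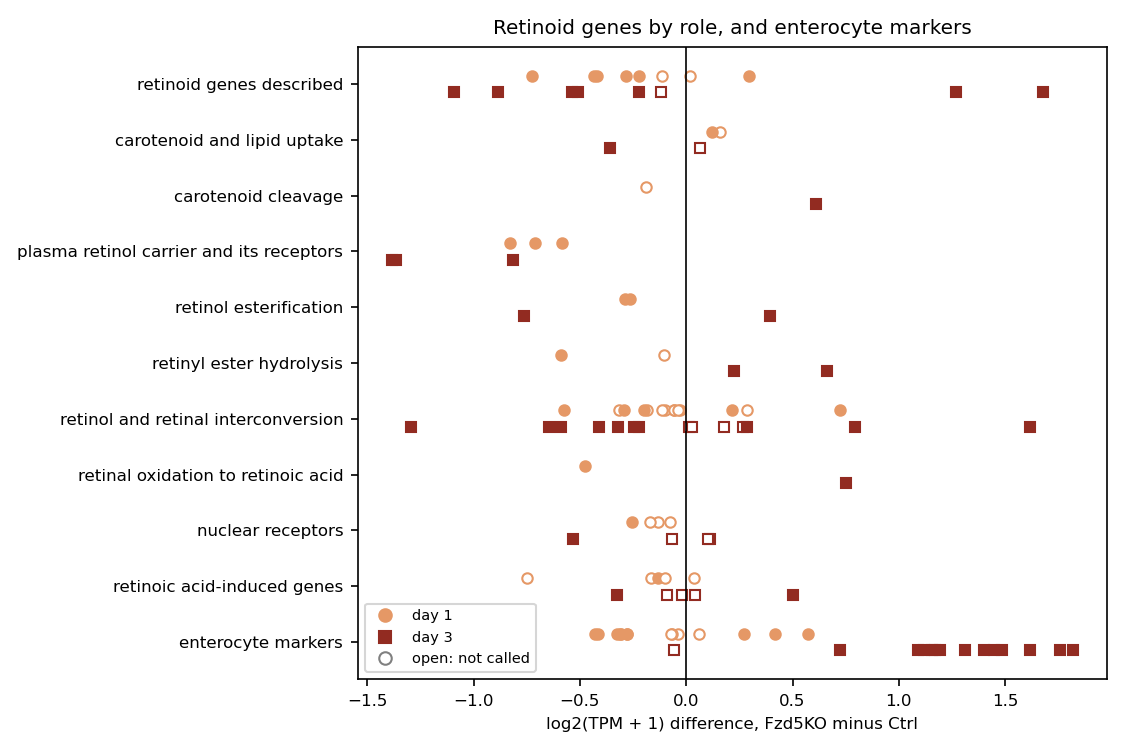
Difference between Fzd5KO and Ctrl on the log2(TPM + 1) scale (horizontal axis, Fzd5KO minus Ctrl) for the 8 genes described, the 34 other tested retinoid genes by role and the 14 enterocyte markers, 1 symbol for each gene at day 1 (light circles) and at day 3 (dark squares), filled where called. Enterocyte markers gather on the right at day 3, with a median of 1.25, while the retinoid genes lie on both sides of 0.

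Few of the genes that this wider list groups as nuclear receptors or as retinoic acid-induced genes were called. Induced genes placed under other roles were not counted. Isx, called lower in Fzd5KO at day 3, and Rarb are also induced by retinoic acid, but are described above and not counted here. Of 4 tested nuclear receptors, 1 was called on each day, Rxrb, at -0.25 at day 1 (limma adjusted p = 0.0489) and -0.53 at day 3 (limma adjusted p = 0.000209). Of the 5 tested genes grouped as induced by retinoic acid, 0 were higher and 1 lower in Fzd5KO at day 1, and 1 was higher and 1 lower at day 3. For both sets the shares called, 20% to 25% at day 1 and 25% to 40% at day 3, were at or below the 25.0% and 62.8% of all tested genes. The lower gene was Tgm2, tissue transglutaminase, at -0.13 at day 1 (limma adjusted p = 0.0347) and -0.33 at day 3 (limma adjusted p = 2.58e-05), and the higher was Hic1, a transcriptional repressor, at 0.50 (limma adjusted p = 0.0132). Rxrb, Tgm2 and Hic1 were named after their values had been seen. The day 1 calls of Rxrb and Tgm2 were lost under all 3 scalings, and Tgm2 then stood between -0.023 and 0.027. Leaving out any one of the 12 libraries except Fzd5KO day 1 replicate 2 also ended the call of Rxrb, and any day 1 library except Fzd5KO replicate 1 ended that of Tgm2, while Hic1 at day 3 missed the threshold without Ctrl replicate 2 (adjusted p = 0.0551). The retinoic acid hydroxylases Cyp26a1, Cyp26b1 and Cyp26c1, the retinoic acid-binding proteins Crabp1 and Crabp2, and Aldh1a2 and Aldh1a3 did not reach the level needed for a test.

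For each tested gene, the genes whose pattern over the 12 libraries was most like it by Pearson correlation of log2(TPM + 1) were also listed, from all tested genes with a group mean of at least 5 TPM. Scarb1 was followed most closely by Epg5 (r = 0.996) and Ifit2 (r = 0.995), and Bco1 by Cbfb (0.995) and Rnase4 (0.993). Rbp2 was followed by Clca4a (0.997) and Gsdmd (0.995), Rdh7 by Afp (0.994) and Tk1 (0.991), and Aldh1a1 by Slc13a1 (0.986) and Ugt2b35 (0.984). Isx was followed by Gsdmc3 (0.971) and Fcsk (0.966), Rbp7 by Cnbp (0.958) and Itln1 (0.954), and Dhrs3 by Dmtf1 (0.958) and Ipo13 (0.953). The 12 libraries fall into 4 groups, and the pairs compared share them.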

How the data were processed

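Stranded total RNA libraries of mouse intestinal epithelial cells were sequenced, per the labels. In the submitters' notes on processing, bcl2fastq 2.18, STAR 2.7.3a, RSEM and mm10 are named. The authors deposited a single table of TPM values, abundances divided by transcript length and scaled to a fixed total, for 55421 genes and 12 libraries, with 0 columns of any other sample. The sources used here give neither the annotation nor the strand setting.

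The log2 of TPM plus 1 was modelled with limma (version 3.58.1, R 4.3.3) as 4 group means over all 12 libraries, with a trend and 8 residual degrees of freedom. A gene was tested when 3 libraries or more held 1 TPM or more (14510 genes). P-values were adjusted over all of these by the Benjamini-Hochberg method and called under 0.05. Contrasts were Fzd5KO minus Ctrl on each day and averaged, their interaction, and time (day 3 minus day 1) by genotype.

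Each result was recomputed with a pseudocount of 0.1 or of 5, with the filter left out or set at 5 TPM, with quantile normalization, median-of-ratios scaling, TPM recalculated without the top 20 genes and without mitochondrial, predicted and small RNAs, without the trend, with a replicate block, on only the libraries compared, and with each library left out. Coordinates come from GENCODE mouse release 21 (GRCm38, or mm10). Shared sequence was counted as 50-base words that exons of another gene also hold.

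The 9 genes and all lists were chosen with earlier results of these data known. Named are all 9 genes, Fzd5, up to 4 called genes of the wider retinoid list with the smallest p in each genotype contrast, the 2 genes most correlated with each tested gene, and genes stated to be chosen later. Figures were drawn with matplotlib 3.10.9.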

Additional observations from a re-analysis of the deposited data

Results flagged for a closer look

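For 6 of the 8 tested genes the difference between Fzd5KO and Ctrl itself differed between day 3 and day 1, by limma's test of the interaction, against 44.3% of all tested genes. The interaction, in log2 units of day 3 minus day 1, was positive for Scarb1 (2.10) and Rbp2 (0.97). It was negative for Rdh7 (-0.66), Rbp7 (-0.42), Aldh1a1 (-0.29) and Isx (-0.24). For Scarb1 the difference was on the other side of 0 at day 1, and for Rbp2, Rdh7 and Aldh1a1 it was on the same side on both days and larger at day 3.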

How the results depend on the processing

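Over the 8 tested genes and 6 contrasts, 972 of 1034 alternative values kept direction and side of the threshold, 36 lost a call, 12 gained one and 14 turned, and for the other named genes 1927 kept both, 85 lost a call, 30 gained one and 20 turned. Rarb, too low to be tested otherwise, passed the threshold in 4 of the 6 contrasts when the filter was left out. At day 1, 3622 genes were called (309 higher, 3313 lower), against 1771 (851 higher, 920 lower) with quantile normalization, 2188 (1277 higher, 911 lower) with median-of-ratios scaling and 1933 (717 higher, 1216 lower) with recalculated TPM. Leaving out 1 library gave 2231 to 3675, the lowest without Ctrl day 1 replicate 2. At day 3, 9113 were called (3529 higher, 5584 lower), and 4567 higher with 4248 lower with median-of-ratios scaling. Median-of-ratios scaling also gave 53.8% higher among the calls of the mean of days (29.8% with TPM as deposited), 55.9% for time in Fzd5KO (76.6%) and 41.0% for time in Ctrl (69.4%), and recalculated TPM gave 36.8% for the interaction (57.0%). With quantile normalization 2 of the 8 genes were called for time in Ctrl, against 4. The cause of these shifts was not tested.

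Values that turned with quantile normalization were, for Fzd5KO minus Ctrl at day 1, Rbp7 (0.035), Lipe (0.0082) and Hic1 (0.0055), for the interaction, Dhrs3 (-0.00080), for time in Fzd5KO, Isx (-0.073), Fzd5 (-0.025), Tgm2 (-0.045) and Bco2 (-0.19), and for time in Ctrl, Akr1b8 (-0.076) and Rdh16f2 (-0.012). With median-of-ratios scaling they were Rbp7 (0.042), Tgm2 (0.027) and Lipe (0.054) at day 1, Dhrs3 at day 3 (0.021), Isx over the mean of days (0.050), Bco1 (-0.0020) and Bco2 (-0.059) for time in Fzd5KO, and Akr1b8 (-0.056) and Rdh16f2 (-0.0093) for time in Ctrl. With recalculated TPM they were Lipe at day 1 (0.0030), Dhrs3 for the interaction (-0.034), and Bco1 (-0.061), Isx (-0.010), Fzd5 (-0.0042), Rxrb (-0.065), Tgm2 (-0.047) and Bco2 (-0.15) for time in Fzd5KO. With each library left out in turn, Isx at day 1 ranged from -0.039 (without Ctrl replicate 3) to 0.055, Hic1 for time in Fzd5KO from -0.11 to 0.044 (without day 1 replicate 1), and for time in Ctrl, Rbp7 ranged from -0.12 to 0.021 (without day 1 replicate 1), Akr1b8 from -0.035 (without day 3 replicate 1) to 0.11 and Rdh16f2 from -0.063 (without day 1 replicate 3) to 0.21. Leaving out each Fzd5 library, an alternative chosen after seeing the data, gave -0.54 to -0.45 at day 1 and -0.78 to -0.70 at day 3. The Isx call over the mean of days was lost in 10 of its 21 alternatives without a turn. In 1 more, median-of-ratios scaling, the value turned and was not called (adjusted p = 0.189).

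The replicate numbers did not pair libraries: deviations of the 18 same-numbered pairs correlated at -0.069 to 0.093, none above 0.1. With the replicate block 3414 genes were called at day 1 and 9029 at day 3, and Aldh1a1 for time in Ctrl gained a call (adjusted p = 0.0285). Depth is unknown, so changes of genes near 1 TPM are the least certain.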
